A study of Homo sapiens with 2 samples.

Results

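The regions described here are bait fragments that occurred in the interaction list of 1 library only. Promoter-capture Hi-C had been run on K562 cells, and each library yielded 1 list of interactions, in which every line pairs a captured fragment (the bait) with a partner and carries a score. A bait fragment was a member when it stood in the bait columns of exactly 1 of the 2 lists. There were 2048 ponatinib-only fragments, 11.5% of the 17883 bait fragments listed in either library, and 1945 DMSO-only fragments, 10.9%. Together they made 3993 fragments (22.3%), while 13890 were baits in both lists. The members were selected on their presence in the bait columns of these lists. That presence rests on at least 1 interaction scored 5 or more with the fragment as bait. Numbers, scores and partners of the members therefore describe the lists and were not tested. Members had low values by the nature of the choice. A line as bait in the other list would have removed a fragment from the group, while a line as partner would not.

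The ponatinib library came from cells kept for 24 h in 100 nM ponatinib, and the DMSO library from cells kept for 24 h in the vehicle DMSO. Both libraries were made from K562, a single established line from chronic myelogenous leukaemia. The line carries the BCR-ABL1 fusion kinase, and ponatinib is an inhibitor of that kinase. There was 1 library per treatment, so no difference below has a replicate check. The ponatinib list held 91306 lines of 15938 baits and the DMSO list 84049 lines of 15835 baits. Interactions between chromosomes 9 and 22, the chromosomes joined by the fusion, made up 1.95% of the ponatinib list and 1.97% of the DMSO list. No score in either list was below 5. Read depth is unknown.

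In promoter-capture Hi-C, crosslinked chromatin is cut with HindIII at AAGCTT and fragments that lie close in the nucleus are ligated. Probes then pull out ligation products with a promoter fragment at 1 end. A promoter fragment can contact an enhancer, another promoter or a structural anchor, and a promoter-to-promoter contact has captured fragments at both ends. CTCF, one of the members, binds DNA and, with cohesin, anchors chromatin loops. A bait enters a list only when at least 1 of its contacts passes the score minimum. Absence from a list therefore means that no contact was listed under that fragment as bait, not that the fragment made none.

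The promoters below lie on the members that carried the most interactions or the highest scores in each group, and they are shown because these fragments are described one by one. Each line gives the 150 bases before the gene start, 5′ to 3′ on the gene's strand, from RefSeq (GRCh38.p14), with CG dinucleotides in capitals. The first 4 are ponatinib-only and the last 3 DMSO-only.
CTCF, chr16:67562376-67562525, plus strand: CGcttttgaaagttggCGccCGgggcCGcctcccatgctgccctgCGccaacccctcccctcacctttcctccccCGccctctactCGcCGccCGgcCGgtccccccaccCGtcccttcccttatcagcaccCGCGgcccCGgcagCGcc
GTF3C2, chr2:27356765-27356914, minus strand: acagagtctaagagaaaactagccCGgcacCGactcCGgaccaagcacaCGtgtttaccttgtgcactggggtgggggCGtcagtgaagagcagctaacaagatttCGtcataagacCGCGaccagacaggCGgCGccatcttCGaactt
SYNGR1, chr22:39349841-39349990, plus strand: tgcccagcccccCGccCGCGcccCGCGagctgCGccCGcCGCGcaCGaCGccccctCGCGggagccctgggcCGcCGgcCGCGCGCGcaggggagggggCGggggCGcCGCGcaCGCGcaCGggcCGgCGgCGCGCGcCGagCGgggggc
TRAF3IP3, chr1:209755903-209756052, plus strand: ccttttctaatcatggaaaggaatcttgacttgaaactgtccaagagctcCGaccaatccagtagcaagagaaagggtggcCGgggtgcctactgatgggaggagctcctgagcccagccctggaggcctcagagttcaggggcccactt
SCYL3, chr1:169893897-169894046, minus strand: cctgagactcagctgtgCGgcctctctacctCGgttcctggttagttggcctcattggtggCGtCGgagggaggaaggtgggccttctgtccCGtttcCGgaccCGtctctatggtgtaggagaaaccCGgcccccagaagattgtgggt
NDUFS4, chr5:53560489-53560638, plus strand: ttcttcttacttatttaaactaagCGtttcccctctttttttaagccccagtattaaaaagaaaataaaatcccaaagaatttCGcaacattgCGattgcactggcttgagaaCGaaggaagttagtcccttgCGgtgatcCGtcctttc
EPC1, chr10:32347159-32347308, minus strand: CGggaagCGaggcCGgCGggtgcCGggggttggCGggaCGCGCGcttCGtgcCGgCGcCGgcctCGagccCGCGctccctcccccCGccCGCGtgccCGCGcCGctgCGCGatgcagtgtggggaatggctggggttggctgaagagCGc
Both groups held promoters with many and with few CG dinucleotides. Among the ponatinib-only promoters SYNGR1 had 33 in these bases, CTCF 15, GTF3C2 11 and TRAF3IP3 2. Among the DMSO-only promoters EPC1 had 25, SCYL3 8 and NDUFS4 6. None of these 7 promoters held AAGCTT or the GATA letters AGATAA or TTATCT in its 300-base window of 250 bases before to 50 after the start.

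Most one-library baits had very few interactions. Exactly 1 interaction was listed for 1128 of the 2048 ponatinib-only baits (55.1%, 95% interval 52.9 to 57.2) and for 1144 of the 1945 DMSO-only baits (58.8%, 56.6 to 61.0). The difference was -3.74 percentage points (-6.80 to -0.666). Exactly 3 interactions were listed for 11.1% of ponatinib-only and 8.28% of DMSO-only baits. The mean was 1.84 interactions per ponatinib-only bait and 1.69 per DMSO-only bait, and the highest number was 17 for a ponatinib-only and 10 for a DMSO-only bait. Baits in both lists had a median of 4 interactions in each list, with a mean of 6.30 in the ponatinib list and 5.81 in the DMSO list. One-library baits thus held 4.12% of the lines of the ponatinib list and 3.91% of the DMSO list. These intervals are exact binomial (Clopper-Pearson) for shares and Newcombe's for differences, cover counting error only, and treat baits and interactions as independent. With both lists at equal length, the share with exactly 1 was 58.0% of ponatinib-only and 57.3% of DMSO-only baits, which turned the sign of the difference.

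The share of a list's baits that were missing from the other list fell steeply with the number of interactions. Of baits with exactly 1 interaction, 31.4% of the ponatinib list and 31.1% of the DMSO list were in that list only. At exactly 3 interactions the shares were 11.2% in the ponatinib list and 7.87% in the DMSO list, and at exactly 5 they were 3.03% in the ponatinib list and 2.19% in the DMSO list. Of baits with 10 or more interactions, 4 of 2474 in the ponatinib list (0.162%) and 1 of 2129 in the DMSO list (0.0470%) were missing from the other. A member with many interactions was thus rare in both lists, and the named examples below come from this small tail.

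**Figure D1:**
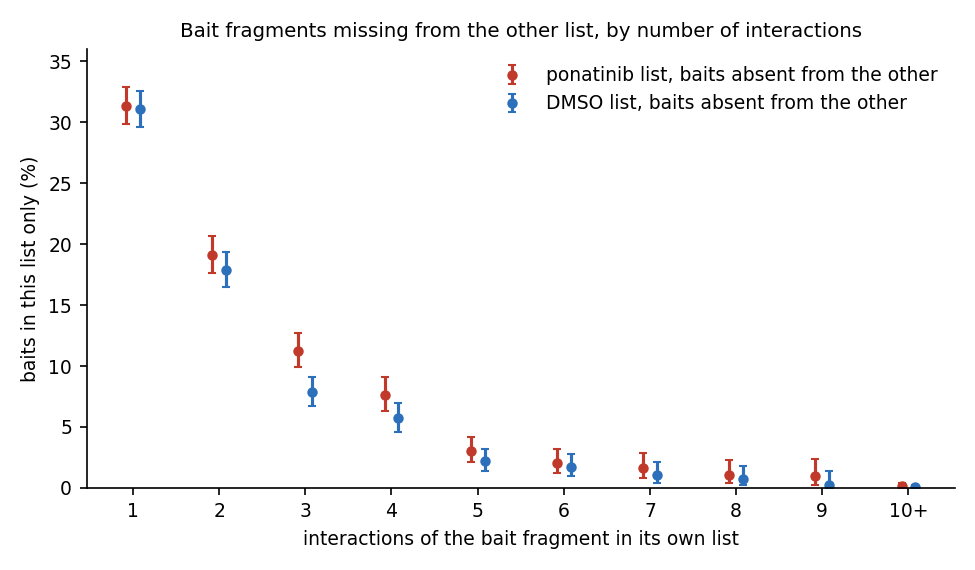
Bait fragments listed in 1 library only, as a percent of all baits in that list (vertical axis), by the bait's number of interactions in its own list (horizontal axis). Points are the shares in the ponatinib list (red) and the DMSO list (blue), with exact 95% binomial intervals. The shares start at 31.4% in the ponatinib list and 31.1% in the DMSO list and end at 0.162% in the ponatinib list and 0.0470% in the DMSO list for 10 or more interactions.

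Scores of one-library baits lay close to the minimum of 5. The median score of an interaction was 5.87 (5.83 to 5.92) for ponatinib-only baits and 5.77 (5.73 to 5.81) for DMSO-only baits. Baits in both lists had medians of 6.59 in the ponatinib list and 6.51 in the DMSO list. All lines of the ponatinib list had a median of 6.55, against 6.47 in the DMSO list, so the lists as a whole differed in the same direction. A score of at least 7 was reached by 598 ponatinib-only baits (29.2%) and 484 DMSO-only baits (24.9%). A score of at least 10 was reached by 111 ponatinib-only (5.42%) and 63 DMSO-only (3.24%) baits, and a score of at least 20 by 16 ponatinib-only and 4 DMSO-only baits. Of the baits in both lists, 34.2% reached 10 in the ponatinib list and 31.8% in the DMSO list.

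**Figure D2:**
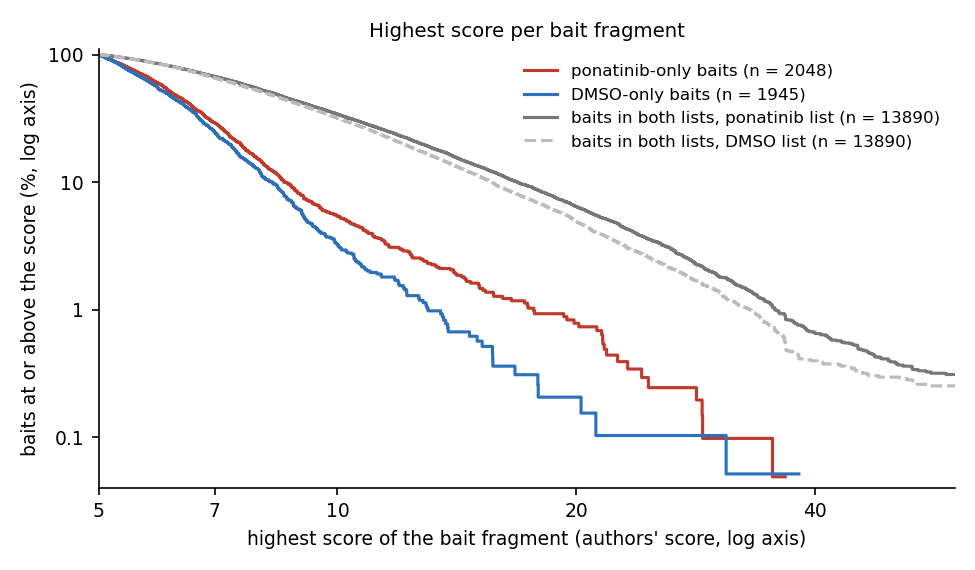
Highest score of each bait fragment (horizontal axis, log scale, the authors' score) against the percent of baits at or above that score (vertical axis, log scale). Red is the 2048 ponatinib-only baits, blue the 1945 DMSO-only baits, and grey the 13890 baits in both lists, in the ponatinib list (solid) and the DMSO list (dashed). Both one-library curves lie under the grey curves, and 5.42% of ponatinib-only and 3.24% of DMSO-only baits reach 10.

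The values at the edge of the rule were nearly the same inside and outside it. Examples on each side were picked for the lowest scores in lists with no score under 5, so their likeness follows from that choice. The lowest ponatinib-only baits, among them the fragment of MLC1, a membrane protein of astrocytes, had a single interaction with a score of 5.0. The lowest DMSO-only baits, among them the fragments of NPS, a neuropeptide, and CASR, the calcium-sensing receptor, had a single interaction with a score of 5.0 as well. Just outside, the ELMOD1 fragment was a bait in both lists with 1 interaction in each, scored 5.0 in ponatinib and 5.03 in DMSO. DISC1 had 5.01 in ponatinib and 5.03 in DMSO. There were 1114 baits with exactly 1 interaction in each list, and only 180 of them (16.2%) had the same partner in both.

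Being absent as a bait did not always mean being absent from the other list. Of the ponatinib-only baits, 383 (18.7%, 17.0 to 20.5) occurred as a partner in the DMSO list, and of the DMSO-only baits 378 (19.4%, 17.7 to 21.3) occurred as a partner in the ponatinib list. The difference was -0.733 percentage points (-3.17 to 1.70). As partners in their own list, 19.2% of ponatinib-only and 19.3% of DMSO-only baits were found, so each group was a partner about as often in the other list as in its own. Of the baits in both lists with exactly 1 interaction, 24.2% of those in the ponatinib list were a partner in the DMSO list and 25.5% of those in the DMSO list a partner in the ponatinib list. With exactly 1 interaction, 15.8% of ponatinib-only and 16.3% of DMSO-only baits were a partner in the other list. Identical pairs written in the other orientation accounted for 29 ponatinib-only and 14 DMSO-only baits. Of shared pairs of 2 bait fragments, 93.4% had the same fragment as bait in both lists. The remaining 1665 ponatinib-only and 1567 DMSO-only baits were at neither end of the other list.

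Some members were listed far more often as partners than as baits. A ponatinib-only fragment on chromosome 1 (32394667 to 32399888), which held no gene end, had 3 interactions as bait and was a partner 15 times in the ponatinib list and 16 times in the DMSO list. The fragment of DOK1, an adaptor protein phosphorylated by BCR-ABL1, had 3 interactions as bait in ponatinib only and was a partner 5 times in the ponatinib list and 8 times in the DMSO list. COG2, a subunit of a Golgi tethering complex, had 4 interactions as a ponatinib-only bait and was a partner 8 times in each list. Among DMSO-only baits, TICRR, a replication initiation factor, had 1 interaction as bait and was a partner 9 times in the ponatinib list and 12 times in the DMSO list. POLA2, a subunit of DNA polymerase alpha, had 1 interaction as bait and was a partner 9 times in the ponatinib list and 6 times in the DMSO list. For these 5 fragments the bait columns differed between the libraries while both lists held the fragment at the partner end.

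A contact can also be listed from a neighbouring fragment. At least 1 interaction with both ends within 10 kb of an interaction of the other list was found for 382 ponatinib-only baits (18.7%) and 250 DMSO-only baits (12.9%), which differed by 5.80 points (3.54 to 8.05). Over interactions the shares were 16.2% for ponatinib-only and 10.2% for DMSO-only baits. Among interactions listed in 1 library only, baits in both lists had such a match for 55.4% in the ponatinib list and 53.4% in the DMSO list. These baits stand by the rule in the bait columns of the other list as well, and members do not. The shares of the 2 kinds of bait are therefore not alike and give no comparison. With exactly 1 interaction per bait, the shares were 9.22% of ponatinib-only and 7.08% of DMSO-only baits. The difference was then 2.14 points (-0.115 to 4.41).

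The partners of one-library baits were farther away than those of baits in both lists. The latter had more interactions and higher scores, and the part of this in the distances and in the shares between chromosomes was not tested. On the same chromosome the median distance was 323 kb (308 to 339) for ponatinib-only and 350 kb (338 to 364) for DMSO-only baits, against 239 kb and 231 kb for baits in both lists in the ponatinib and DMSO lists. With a score minimum of 10 and membership redone, the medians were 249 kb for ponatinib-only and 233 kb for DMSO-only baits. Most members of those stricter lists were baits in both full lists. In the full lists, distances beyond 1 Mb made up 9.34% of same-chromosome interactions of ponatinib-only and 10.1% of DMSO-only baits. Partners lay on another chromosome in 505 of 3761 interactions of ponatinib-only baits (13.4%) and 510 of 3286 of DMSO-only baits (15.5%), against 7.19% in the ponatinib list and 7.24% in the DMSO list for baits in both lists. For baits in both lists in the ponatinib and DMSO lists, 55.0% and 51.0% of such interactions joined chromosomes 9, 13 and 22, which are rearranged in K562. For one-library baits only 6 of 505 in ponatinib and 3 of 510 in DMSO did. With exactly 1 interaction per bait, the distance was 385 kb for ponatinib-only and 380 kb for DMSO-only baits, and 20.4% and 20.0% of partners were on another chromosome, so both differences between the groups turned their sign.

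Ponatinib-only baits contacted other bait fragments more often than DMSO-only baits did. A partner counted as a bait when it stood in the bait columns of either list. The capture design was not used, so a captured fragment without a line as bait counted as no bait. A bait stood at the other end in 1120 interactions of ponatinib-only baits (29.8%, 28.3 to 31.3) and in 718 of DMSO-only baits (21.9%, 20.4 to 23.3). These shares differed by 7.93 percentage points (5.89 to 9.95). For baits in both lists it was 18.2% in the ponatinib list and 18.98% in the DMSO list. With exactly 1 interaction per bait it was 23.4% for ponatinib-only and 19.1% for DMSO-only baits, against 29.98% and 31.3% for baits in both lists. With a score minimum of 7 and membership redone, the shares of ponatinib-only and DMSO-only baits were 30.04% and 29.5%. Most members of those stricter lists, 1974 of 2572 ponatinib-only and 1733 of 2217 DMSO-only baits, were baits in both full lists.

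A small set of members contacted bait fragments only, a pattern described after the values were seen. Among baits with 4 or more interactions, all partners were baits for 22 of 190 ponatinib-only baits (11.6%, 7.40 to 17.0) and 5 of 138 DMSO-only baits (3.62%, 1.19 to 8.25). The share was 2.97% for baits in both lists in the ponatinib list and 3.20% in the DMSO list. This bin has no upper limit and baits in both lists had more interactions, so its shares give no like comparison with them. At exactly 3 interactions the share was 11.01% for ponatinib-only and 8.70% for DMSO-only baits. For baits in both lists it was then 10.5% in the ponatinib list and 8.86% in the DMSO list. At exactly 2 it was 11.7% and 7.37% for the members, against 16.5% and 16.6%. Among members with a score of at least 10, all partners were baits for 42 of 111 ponatinib-only and 17 of 63 DMSO-only baits. At a score of at least 20 this held for 9 of 16 ponatinib-only and 2 of 4 DMSO-only baits. Of the 10 ponatinib-only baits with the most interactions 5 belonged to this set, CTCF among them, and of the 10 such DMSO-only baits none did.

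**Figure D3:**
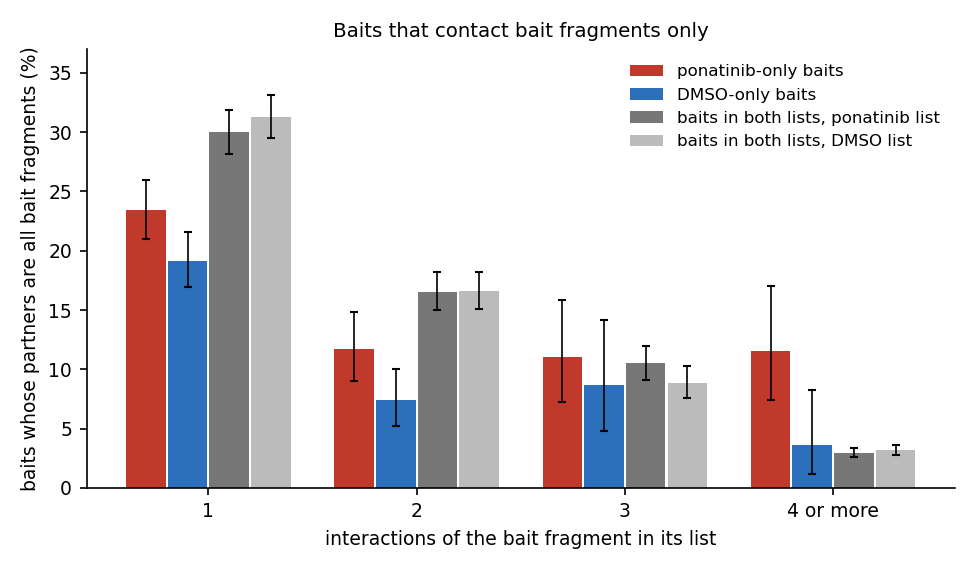
Percent of bait fragments whose listed partners are all bait fragments (vertical axis), by the number of interactions of the bait (horizontal axis). Bars are ponatinib-only (red), DMSO-only (blue) and both-list baits in the ponatinib (dark grey) and DMSO (light grey) lists, with exact 95% binomial intervals. At 4 or more interactions the ponatinib-only share is 11.6%, against 3.62% for DMSO-only and 2.97% and 3.20% for both-list baits. That bin has no upper limit, and both-list baits have more interactions. At exactly 3 the share is 11.01% for ponatinib-only, 8.70% for DMSO-only and 10.5% and 8.86% for both-list baits.

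The CTCF fragment (chr16:67558800-67564748, hg38), which carries the start of CTCF and of its divergent transcript CTCF-DT, had 9 interactions in the ponatinib list and none in the DMSO list. It was a partner in neither list. Its scores were 17.71, 9.5, 9.04, 7.79, 7.64, 6.61, 5.93, 5.51 and 5.44, so 1 stood far above the other 8. The strongest contact joined the promoter to a bait fragment 55.1 kb downstream inside CTCF itself. The next joined it to the fragment of NUTF2, a nuclear transport factor, and EDC4, an mRNA decapping scaffold, 313 kb away. Other partners held CARMIL2, ACD, PARD6A and ENKD1 (95.7 kb), DPEP3 (419 kb), PLA2G15 and SLC7A6 (696 kb) and, on the other side, HSD11B2 and ATP6V0D1 (129 kb). All 9 partners were baits, and each occurred in 5 to 14 lines of the DMSO list with other partners. Of the 9 contacts, 3 had an interaction of the DMSO list within 10 kb at both ends.

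The other baits within 100 kb of the CTCF fragment were in both lists. The AGRP fragment had 10 interactions in ponatinib and 5 in DMSO, and the fragment of C16orf86, ENKD1 and GFOD2 had 12 in ponatinib and 6 in DMSO. CARMIL2 had 7 in ponatinib and 5 in DMSO, and ATP6V0D1 had 5 in ponatinib and 4 in DMSO. A fragment upstream without a gene end had 5 in ponatinib and 7 in DMSO. The fragment inside CTCF had 3 as a bait in ponatinib and 4 in DMSO. Most of these numbers as bait were higher in ponatinib, the longer list (91306 against 84049 lines), but none of these neighbours was missing from a list. As partners the order went both ways. ATP6V0D1 was a partner 4 times in ponatinib and 8 times in DMSO, and the fragment inside CTCF 5 and 3 times. With a score minimum of 7 the CTCF fragment kept 5 interactions in ponatinib, and with a minimum of 10 it kept 1, against 0 in DMSO each time.

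GTF3C2, a subunit of the RNA polymerase III factor TFIIIC, had the most interactions of any member. Its fragment (chr2:27354376-27360875) had 17 in the ponatinib list, with scores between 5.04 and 35.35, and was neither bait nor partner in the DMSO list. All 17 partners were baits. The strongest joined the promoter to the other end of GTF3C2, 23.5 kb away (35.35), then to the fragment of EIF2B4 and SNX17 at 12.97 kb (30.67) and to that of TRIM54, UCN and MPV17 at 51.5 kb (28.17). The 3 other baits within 20 kb had 20 interactions in ponatinib and 25 in DMSO, and 11 of the 17 contacts had a match within 10 kb at both ends in the DMSO list. The region was thus densely listed in both libraries, and the GTF3C2 fragment itself in ponatinib only.

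NASP, a histone chaperone, had 12 interactions in the ponatinib list, all with baits and all with scores between 7.13 and 21.23. The strongest reached a fragment in TESK2, 220 kb away, and others reached the fragments of PIK3R3 and TSPAN1 (594 kb) and MUTYH and TOE1 (238 kb). No other bait lay within 20 kb, and 1 of the pairs was in the DMSO list in the other orientation. BSPRY also had 12 interactions, but only 3 with baits, and its scores ended at 8.1. SYNGR1, a synaptic vesicle protein, had 11, of which 1 was with a bait, the fragment of the stress transcription factor gene ATF4 (8.17). The SYNGR1 fragment was also a partner 4 times in each list. NASP, BSPRY and SYNGR1 thus shared a high number and differed in the kind of partner.

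The highest ponatinib-only score, 36.68, belonged to TRAF3IP3, which encodes a TRAF3-interacting protein of lymphocytes. It had 9 interactions, 7 of them with baits, and the second, with HSD11B1, the enzyme that regenerates cortisol, scored 21.15 at 66.7 kb. A fragment that carries both CNPY4 and TAF6, a TFIID subunit, had 9 interactions with a top score of 28.35 to PILRB at 232 kb. Its second contact joined the fragment of COPS6 and the replicative helicase gene MCM7 (19.27). The fragment of CALM3, a calmodulin gene, and PTGIR, the prostacyclin receptor gene, had 4 interactions and a top score of 28.86. GSTK1, a glutathione transferase, had 6 interactions, all with baits, from 7.61 to 28.82, and each had a match within 10 kb in the DMSO list. MYO1A, a brush border myosin, had 8, all with baits, from 5.52 to 21.84. MYO1A and TRAF3IP3 had no such match for any contact. The starts of MYO1A, CALM3 and PTGIR were not shown on their fragments.

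SCYL3, a pseudokinase, had the most interactions of the DMSO-only baits. Its fragment (chr1:169887282-169896724) had 10 in the DMSO list, with scores between 5.68 and 21.17, and was neither bait nor partner in the ponatinib list. Of its partners 9 were baits, the strongest the fragment of METTL18 at 96.7 kb, followed by GORAB at 641 kb (12.15). Other partners lay beyond 1 Mb, such as MROH9 at 1040 kb (10.2), PRRC2C at 1595 kb (10.17) and a fragment in MYOCOS at 1729 kb (7.25). Every partner of SCYL3 was listed in the ponatinib list with other fragments, and no contact had a match within 10 kb. SCYL3 resembled NASP and CTCF in its bait partners, in the opposite library.

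The other DMSO-only baits with many interactions mostly contacted fragments that were listed as baits in neither library. NDUFS4, a subunit of respiratory complex I, had 9 interactions with scores between 5.02 and 7.45, none with a bait, and 8 of them were 385 to 828 kb downstream on the same chromosome, mostly inside ARL15. PIK3R4, the regulatory subunit of the class III phosphoinositide 3-kinase, had 8 between 5.03 and 10.26. Of these 8, 1 was with a bait, and the strongest 3 lay inside ATP2C1, 141 to 150 kb away. The fragment with the start of EPC1, a subunit of the NuA4 acetyltransferase, had 8 up to 7.75, the strongest with KIF5B, a kinesin gene, at 294 kb. PLCB4, whose start was not shown on its fragment, and the fragment with the start of SLC24A2 also had 8 each, with top scores of 6.72 and 6.42. The fragment of CHMP4A, an ESCRT-III subunit, and MDP1 had 7 up to 13.77. It was also a partner 7 times in the ponatinib list and 6 times in the DMSO list.

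The highest DMSO-only score was 38.16, for the only interaction of the fragment of NAE1, a subunit of the NEDD8-activating enzyme, and TERB1. Its partner lay on chromosome X inside IL1RAPL1 and was at neither end of the ponatinib list. A fragment on chromosome 1 (179710042 to 179713555) without a protein-coding gene end came next with 30.9, to a bait 106 kb away. PAMR1 had a single interaction, scored 17.91, with the fragment of COMMD9 at 757 kb. Scores of at least 20 were thus spread over 4 DMSO-only baits, of which SCYL3 alone had more than 3 interactions.

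**Figure D4:**
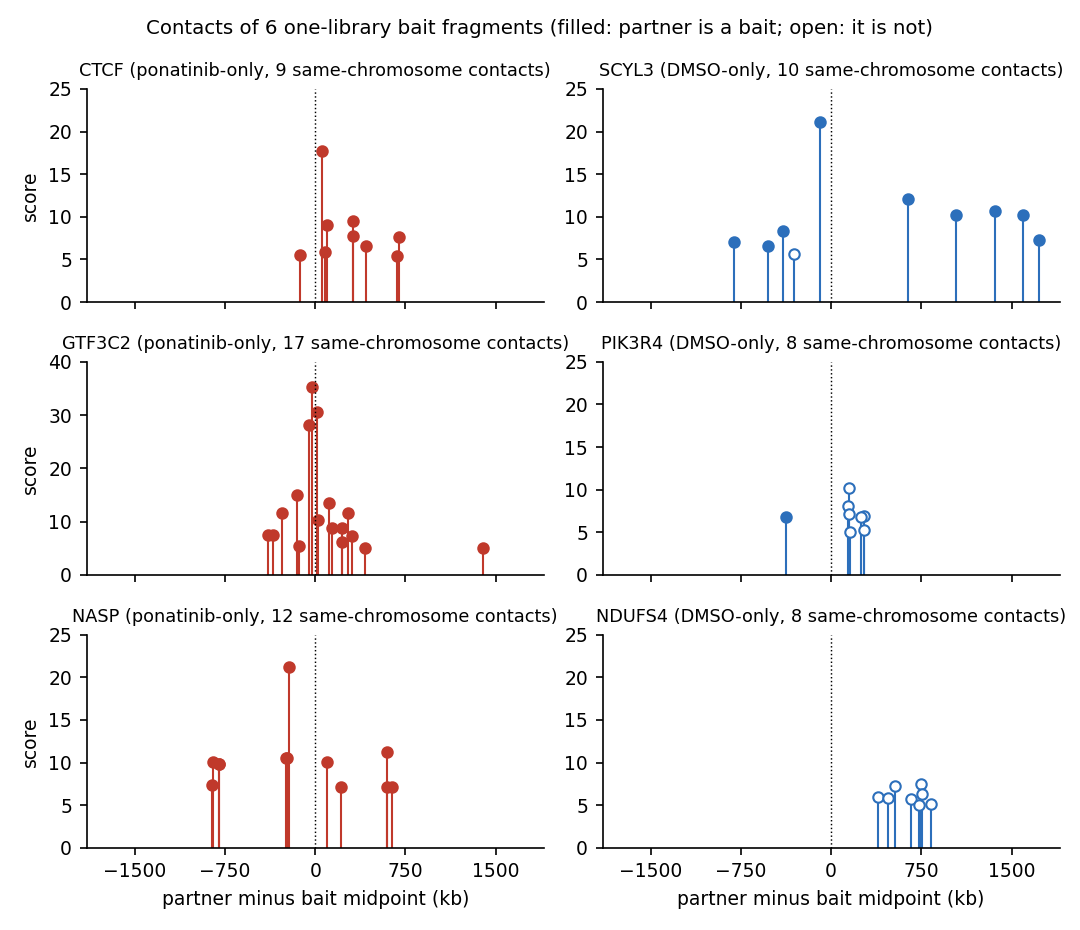
Listed same-chromosome contacts of 6 one-library baits: CTCF, GTF3C2 and NASP (ponatinib-only, left) and SCYL3, PIK3R4 and NDUFS4 (DMSO-only, right). The horizontal axis is partner minus bait midpoint in kb, with 0 at the bait, the vertical axis the authors' score, with a longer scale for GTF3C2. Filled points are partners listed as baits in either library, as for all 9 of CTCF, 17 of GTF3C2 and 12 of NASP. Open points are other partners, as for all 8 shown of NDUFS4.

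One-library baits held genes less often than baits in both lists. An end of a protein-coding gene lay on 60.7% of ponatinib-only fragments (58.6 to 62.9) and 55.1% of DMSO-only fragments (52.9 to 57.3), which differed by 5.63 points (2.56 to 8.68), and on 69.5% of baits in both lists. With any RefSeq gene the shares were 82.2% of ponatinib-only, 79.3% of DMSO-only and 86.7% of both-list fragments. Baits in both lists with exactly 1 interaction held a protein-coding gene end in 61.9% of cases in the ponatinib list and 62.6% in the DMSO list. With exactly 1 interaction, 57.8% of ponatinib-only and 52.4% of DMSO-only baits held such an end. With a score minimum of 7 the shares were 67.7% of ponatinib-only and 66.5% of DMSO-only baits, and with a minimum of 10 they were 70.9% and 71.6%, so the difference turned its sign.

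Of 13721 protein-coding genes with a listed bait fragment, 1279 (9.32%) had ponatinib-only fragments alone and 1120 (8.16%) DMSO-only fragments alone. A further 33 genes had fragments of both kinds, among them BST2, an interferon-induced antiviral protein, and RPL18, a ribosomal protein. With lists of equal length the shares were 8.68% ponatinib-only and 9.57% DMSO-only, and with a score minimum of 7 and membership redone they were 19.004% and 16.1%. Counts of gene lists below are read beside these percentages. They describe the lists and set none of them apart. A gene is tied to a fragment that holds either of its ends. Such a fragment can hold the far end of the gene, and ends of other genes too.

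Among 38 listed proteasome subunit and assembly genes, whose products degrade ubiquitin-tagged proteins, 9 were ponatinib-only (23.7%) and 1 was DMSO-only. PSMD9 had 5 interactions up to 7.19, PSMC1 3 up to 5.58, PSMB4 3 up to 6.04 and PSMF1, an inhibitor of the proteasome, 3 up to 6.1 in the ponatinib list. PSME3, an activator subunit, had 2 up to 10.49, on a fragment shared with AOC2 and AOC3. The DMSO-only member was PSMD12, with 3 interactions up to 8.82. With a score minimum of 7, 4 of 31 were ponatinib-only and 5 DMSO-only, so the order of the counts turned, beside 19.004% and 16.1% of all genes at that minimum.

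Of the 31 listed genes of the BCL2 family and cell death, 5 were ponatinib-only and none was DMSO-only. They were BCL2A1, an antiapoptotic protein, with 3 interactions up to 6.27, DIABLO, which antagonises inhibitors of apoptosis, with 3 up to 7.13, and XIAP, such an inhibitor, with 2 up to 6.31. BIK and BIRC5 had 1 each, at 6.2 and 5.28, and their gene starts were not shown on the fragments. With lists of equal length 5 were ponatinib-only and 1 DMSO-only, and with a score minimum of 7, 2 were ponatinib-only and 1 DMSO-only of 24. Of 22 listed genes of cholesterol and fatty acid synthesis, 4 were ponatinib-only and none DMSO-only. EBP had 4 interactions up to 7.82, LSS, which forms lanosterol, 3 up to 9.06, and DHCR7, a reductase of a late step, 1 at 5.11. EBP and DHCR7 were also partners in the DMSO list, 3 times and 1 time.

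Of 28 listed genes of chromatin architecture, 3 were ponatinib-only (CTCF, SATB1 and YY1) and none DMSO-only. YY1, which binds promoters and enhancers, had 2 interactions at 5.01 and 5.49, and SATB1, a chromatin organiser of lymphocytes, 1 at 5.93, far from the 9 of CTCF. Of 25 listed Mediator genes, 2 were ponatinib-only, MED13 with 2 interactions up to 8.74 and MED27 with 1 at 6.53. The start of MED13 was not shown on its fragment. Of 58 listed epigenetic enzymes, 6 were ponatinib-only and 1, KDM5A, DMSO-only with a single score of 5.69. KDM1A, a histone demethylase, had 3 interactions up to 8.94, KMT2D, an enhancer methyltransferase, 3 up to 5.65, and DNMT1, the maintenance DNA methyltransferase, 2 up to 9.69. Most of these members rested on 1 to 3 interactions. With a score minimum of 7 the order turned for chromatin architecture, with 3 ponatinib-only and 4 DMSO-only of 22, and for Mediator, with 3 ponatinib-only and 6 DMSO-only of 22. All genes at that minimum had 19.004% ponatinib-only and 16.1% DMSO-only.

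The members among genes downstream of BCR-ABL1 and among erythroid genes had low numbers of interactions. Of 46 listed BCR-ABL1 signalling genes, 4 were ponatinib-only (8.70%) and 1 DMSO-only (2.17%), beside 9.32% and 8.16% of all genes. AKT1, a kinase of the PI3K pathway, had 2 interactions up to 7.53, while DUSP6, a phosphatase of ERK, PIM2, a STAT5 target kinase, and RPTOR, a subunit of mTORC1, had 1 each at 6.98, 6.58 and 5.51. The AKT1 fragment also held an end of SIVA1, and the start of AKT1 was not shown on it. The PIM2 fragment also held ends of OTUD5 and SLC35A2. PIK3R2, a PI3K regulatory subunit, was DMSO-only with 1 at 6.64. Of 35 listed erythroid genes, EPOR, the erythropoietin receptor, was ponatinib-only (2.86%) with 1 interaction at 7.82. EPB41, GYPC, HBZ and RHCE were DMSO-only (11.4%) with 1 or 2 each, the highest score being 7.41 for RHCE. HBZ encodes the embryonic zeta globin, and its single score was 5.65. EPOR shared its fragment with RGL3, EPB41 with TMEM200B and RHCE with MACO1. No gene start was shown on the fragment for EPB41, HBZ or RHCE.

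Of 18 listed megakaryocyte genes, 3 were ponatinib-only and 3 DMSO-only. P2RY12, the platelet ADP receptor, had 4 interactions up to 6.75 in ponatinib, and FLI1 and VWF 1 each at 6.14 and 5.62. VWF shared its fragment with ANO2, and no gene start was shown on the fragment for VWF or FLI1. SELP had 2 up to 7.28 in DMSO, and PPBP and GP9 1 each at 5.26 and 5.16. Of 41 listed cell cycle genes, MCM2, RBL1 and WEE1 were ponatinib-only and CCNA2, CDK1 and E2F8 DMSO-only. The highest scores were 8.93 for RBL1 and 7.65 for E2F8. For WEE1 and E2F8 no gene start was shown on the fragment. Of 20 listed interferon response genes, CXCL10 was ponatinib-only at 6.94, and IFIT3, IFIH1 and OAS1 were DMSO-only, IFIT3 with 3 interactions up to 11.94. In these 3 lists members occurred in both groups.

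Of 19 listed liver and neuron genes, which stand for cell types other than K562, 4 were ponatinib-only and 2 DMSO-only. GRIN1, a neuronal glutamate receptor subunit, had 1 interaction at 9.06 in ponatinib, and GAD2, a neuronal enzyme, 1 at 6.77 in DMSO. The start of GRIN1 was not shown on its fragment. Among 20 listed lymphoid genes RAG1 alone was a member, ponatinib-only with 3 interactions up to 10.2 on a fragment shared with TRAF6. Among 15 granulocyte and monocyte genes MS4A3 was DMSO-only with 4 up to 6.39, and among 25 genes of glycolysis and hypoxia HK1 was DMSO-only with 1 at 5.2.

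Members were unevenly spread over chromosomes. Of the listed baits on chromosome 19, 132 of 731 were ponatinib-only (18.1%) and 97 DMSO-only (13.3%). On chromosome X the shares were 17.5% ponatinib-only and 17.8% DMSO-only, and on chromosome 22 they were 16.6% (49 of 296) and 10.8% (32). The lowest shares were on chromosome 1, with 7.82% ponatinib-only and 6.69% DMSO-only. Baits on chromosomes 13, 19 and X had a median of 2 interactions in each list, against 3 or 4 on every other chromosome, and the part of this in the shares was not tested.

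**Figure D5:**
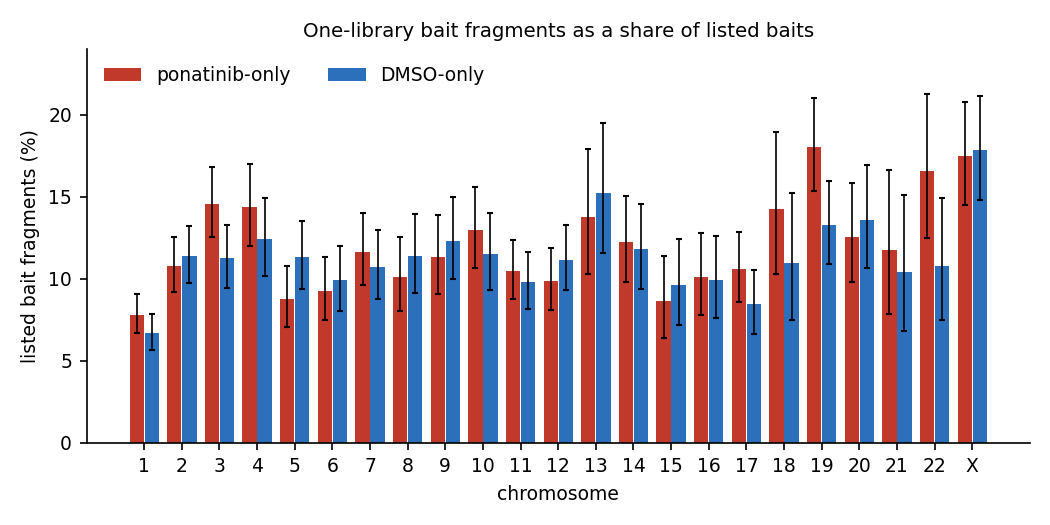
Ponatinib-only (red) and DMSO-only (blue) bait fragments as a percent of all listed baits on each chromosome (vertical axis), with exact 95% binomial intervals. Chromosomes 1 to 22 and X run along the horizontal axis. Chromosome 19 has 18.1% ponatinib-only and 13.3% DMSO-only, chromosome X 17.5% and 17.8%, and chromosome 1 the lowest with 7.82% and 6.69%.

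One-library fragments were shorter and lay in regions with fewer genes. The median fragment length was 6408.5 bp for ponatinib-only, 5990 bp for DMSO-only and 6702 bp for both-list baits. Within 500 kb of a fragment the median number of protein-coding gene ends was 16 for ponatinib-only, 14 for DMSO-only and 21 for both-list baits. The 300-base promoter windows on the fragments had a median G+C of 63.3% in ponatinib-only, 62.3% in DMSO-only and 64.0% in both-list baits, against 58.7% over all 35116 windows of the table. They held a median of 21 CG dinucleotides in both one-library groups and 24 in both-list baits. The HindIII letters AAGCTT (the same on both strands) were in 3.90% of ponatinib-only, 3.42% of DMSO-only and 3.60% of both-list windows, against 5.84% of all windows. The GATA letters AGATAA or TTATCT (1 motif on its 2 strands, with no overlap with AAGCTT) were in 8.04% of ponatinib-only, 9.23% of DMSO-only and 6.54% of both-list windows, against 10.3% of all. A match of letters is a description of the window only.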

How the data were processed

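The authors deposited 1 interaction list per library, with bait, partner and a score. The score is the authors' own value, with no score under 5. Its definition, the caller and the aligner were not given in the sources used here. Per the submitters' processing notes, the build was hg38. Scores were not normalised between libraries.

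Members, gene lists and comparisons were chosen with earlier results of these data known. A member is a fragment in the bait columns (1 to 3) of exactly 1 list. Partners were read from column 4, and a partner counted as a bait when it stood in the bait columns of either list. Distance is between fragment midpoints. A gene was tied to a fragment that holds either of its ends, since the RefSeq gene table (GRCh38.p14, 20037 protein-coding genes) gives no strand. Promoter windows came from RefSeq (GRCh38.p14). They hold 80.6% of protein-coding genes with a listed bait.

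With 1 library per treatment no test was made. Intervals are 95%, exact binomial for shares, from order statistics for medians and Newcombe's for differences. Counting was tested on simulated lists. Named fragments were CTCF, the 10 per group with most interactions, the 5 with the highest scores, the 5 most often a partner in the other list, those nearest the score minimum, and up to 3 per gene list and group. Some of these are not reported here, and further members of short lists were named after their values were seen. Alternatives were stricter scores, equal list lengths, pairs on 1 chromosome, absence from both ends, at least 2 interactions, lists without chromosomes 9, 13 and 22, autosomes, other gene rules and other match windows. Software was Python 3.11.15 with pandas 2.3.3, NumPy 2.4.6, SciPy 1.17.1 and Matplotlib 3.10.9.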

Additional observations from a re-analysis of the deposited data

How the results depend on the processing

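Values below are ponatinib-only minus DMSO-only, in percentage points unless said otherwise. Of the 94 repeats of the main results, 72 stayed within the interval of the main value, or near it for numbers of baits, 16 moved and 6 reversed. A reversal was counted only where the main interval lay wholly on 1 side of equality. Changes of sign thus also stand among the 72 and the 16. The share listed as a partner in the other list was -0.733 in the full lists, 1.61 with scores of at least 7 and 1.05 with at least 10. The ponatinib-only share of all one-library baits was 1.29 points above 50% in the full lists, 3.71 with scores of at least 7, 6.71 with at least 10 (DMSO-only number 1230), 3.46 with at least 2 interactions (920 ponatinib-only and 801 DMSO-only baits) and -4.58 with lists of equal length. Equal length also gave a share with exactly 1 interaction of 0.773, a median score difference of 0.29 score units, a share between chromosomes of -0.406 and, for all genes, -0.888, against 1.16 in the full lists and 2.91 with scores of at least 7. The gene-end difference was 1.16 with at least 7 and -0.738 with at least 10. The share with a bait at the other end was 0.591 with at least 7, 0.226 with at least 10 and 4.26 for members with exactly 1 interaction. Scores of at least 10 also gave -6.88 for the share with exactly 1 interaction and a distance difference of 16.4 kb. Members with exactly 1 interaction, an alternative chosen after seeing the data, gave 4.68 kb, 0.373 for the share between chromosomes and 2.14 for near matches. The proteasome list gave -3.23 with at least 7. Membership was redone under each score minimum and equal length, so other fragments entered, and the cause was not tested further. No paired analysis was possible because each treatment had 1 library. Unknown depth, the fixed score minimum and single libraries limit every number here, and a fragment with 1 listed interaction near a score of 5 enters or leaves a group by that interaction alone.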

Other observations

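Members also occurred in runs along the chromosomes, here fragments of the same group with gaps of at most 200 kb. Ponatinib-only baits formed 1581 runs, 1260 of them single fragments and 99 with at least 3, and DMSO-only baits formed 1536 runs, 1240 single and 73 with at least 3. The longest run was DMSO-only, at a zinc finger cluster on chromosome 19 (57407303 to 57873229), where 10 of the 18 listed baits were members, among them the fragments of ZNF17, ZIK1, ZNF551, ZNF154, ZNF586 and ZNF587. These 10 baits had 12 interactions in all. Another DMSO-only run of 8 of 17 listed baits lay on chromosome 15 (24673846 to 25276728), in the imprinted region with NPAP1 and SNRPN. A further one held all 5 listed baits at an olfactory receptor cluster on chromosome 11 (5421043 to 5506487), with OR51B5, OR51I2, OR51Q1 and OR52D1. As partners, OR51B5 was listed 6 times and OR52D1 4 times in the ponatinib list, against 3 and 2 times in the DMSO list. OR51Q1 was a partner 1 time in the ponatinib list, and OR51I2 in neither list. The longest ponatinib-only runs had 6 baits, among them 6 of 7 listed baits around BCCIP and EDRF1 on chromosome 10 and 6 of 19 around HAMP, the hepcidin gene, MAG, CD22 and ETV2 on chromosome 19. Most of these baits had 1 or 2 interactions. Over all listed baits 10.9% were DMSO-only and 11.5% ponatinib-only. The runs named here were picked for their length, and each span starts and ends at a member. High shares within them follow from that choice.

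Large gene families had members in both groups. Of 186 listed olfactory receptor genes, 21 were ponatinib-only and 28 DMSO-only. OR52N5 had 6 interactions up to 12.41 in ponatinib, and OR10J5 had 6 up to 8.68 in DMSO. Of 282 listed zinc finger (ZNF) genes 48 were ponatinib-only and 39 DMSO-only, of 288 solute carrier genes 32 were ponatinib-only and 29 DMSO-only, and of 84 keratin and keratin-associated genes 10 were ponatinib-only and 12 DMSO-only. SLC22A5, a carnitine transporter, had 7 interactions up to 10.38 in ponatinib. With a score minimum of 7 the solute carriers had 46 ponatinib-only and 28 DMSO-only genes of 205, and the keratin genes 10 ponatinib-only and 19 DMSO-only of 56. Over all genes at that minimum, 19.004% were ponatinib-only and 16.1% DMSO-only. Of 19 listed defensin genes, 3 were ponatinib-only and none DMSO-only, but 1 of 17 was in each group with lists of equal length, and 5 were ponatinib-only and 4 DMSO-only of 13 with a score minimum of 7. In the full lists all 45 listed clustered protocadherin genes and all 11 listed taste receptor genes had baits in both lists. Histone genes had no ponatinib-only member and 2 DMSO-only of 71, H2AC1 and H2BC1, on 1 shared fragment. Mitochondrial ribosomal protein genes had 2 ponatinib-only and 2 DMSO-only members among 56.

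Ribosomal protein genes differed with the score minimum. In the full lists 4 of 68 listed genes were ponatinib-only and 2 DMSO-only. With a score of at least 7 in both lists, 18 of 60 were ponatinib-only and 2 DMSO-only, beside 19.004% ponatinib-only and 16.1% DMSO-only over all genes at that minimum, chosen for mention after the values were seen. The single fragment of RPL36, which also holds ends of LONP1, MICOS13 and HSD11B1L, had 4 interactions up to 7.01 in ponatinib.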
